A study of Caenorhabditis elegans with 18 samples.

Results

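Mitochondria carry their own ribosomes, which translate the few respiratory chain subunits that the mitochondrial genome encodes. Each ribosome has a large subunit, where peptide bonds are formed, and a small subunit, where the codon is read. Their proteins are encoded in the nucleus, made in the cytosol and imported, and many but not all have a bacterial counterpart. In C. elegans, loss of several of these genes, mrps-5 among them, is known to activate the mitochondrial unfolded protein response and to lengthen life.

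The genes described here are all rows of the gene tables whose name begins with mrpl- (large subunit) or mrps- (small subunit) and a digit. There were 71 among 46253 rows, 42 of the large and 29 of the small subunit. By name, 45 belong to families shared with bacteria and 25 to families specific to mitochondria, and mrpl-55 was put in neither class. All 71 passed the filter on low counts, as did 16006 genes in all, and none had fewer than 415 counts in any sample. The rule misses dap-3, a GTP-binding protein of the small subunit, which is described beside them.

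RNA was sequenced from whole wild-type N2 worms of both exposures, raised at 20 C from starved, synchronised first-stage larvae on OP50 bacteria, with males and delayed animals taken off before harvest. The exposed worms grew on plates spread with ascr#10, a male ascaroside pheromone, at 2.2 or 1.1 fg per plate by plate size, and the controls on plates spread with water. There were 3 samples in each of 6 groups: ascr#10 and water at 50 h, ascr#10 and water at 58 h from the same collection, and ascr#10 and water at 58 h from a second collection made for depth. Total counts per sample were 25.6 to 32.9 M in the first collection and 54.3 to 72.3 M in the other, and 1 library, ascr#10 at 50 h replicate 2, held 2.25% of its counts in ribosomal RNA genes. Levels are given as TPM, the authors' length-scaled abundance, where genes are compared with each other. They are given as CPM where samples are compared. These are counts scaled to library size after its adjustment by TMM, edgeR's scaling factors between libraries. Whole worms hold every tissue, so fewer cells of a type and less RNA per cell cannot be told apart.

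The 71 genes lay close together in level. Mean TPM over the 18 samples ran from 20.99 to 287, a 13.7-fold range, with a median of 62.2 TPM, and 66 of 71 genes were within 2-fold of that median. The large subunit had a median of 59.7 TPM and the small subunit one of 65.4 TPM. For scale, the median was 231 TPM over 40 nuclear-encoded respiratory chain genes, 2701 TPM over 78 cytosolic ribosomal protein genes and 8.45 TPM over all genes tested.

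The highest level belonged to mrpl-36, the shortest transcript of the set and the homolog of a small zinc-binding bacterial protein. It had 223 to 398 TPM across samples and lies on chromosome III (WBcel235, 9847626 to 9848116, minus strand, 2 exons, Ensembl release 115). Next came mrpl-42, a mitochondria-specific protein, at 125 to 173 TPM, and mrpl-12, the stalk protein that recruits translation factors in bacteria, at 105 to 118 TPM. The lowest were mrps-31 at 17.2 to 25.0 TPM, mrpl-45 at 18.1 to 27.8 TPM and mrpl-37 at 19.4 to 33.0 TPM, all 3 specific to mitochondria. In mammals the mrpl-45 product lies at the exit of the peptide tunnel and holds the ribosome to the inner membrane. The ranges of these 3 genes over all samples overlapped, but within each of the 18 samples mrps-31 was below mrpl-45 and mrpl-45 below mrpl-37. In TPM mrpl-36 was above every other gene of the set in all 18 samples. The ranks of mrpl-36 and mrpl-42 rest on the scaling by length. Their mean CPM was 22.7 and 20.4, against 58.0 for mrpl-12 and 31.5 for mrps-31, the lowest in TPM.

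**Figure D1:**
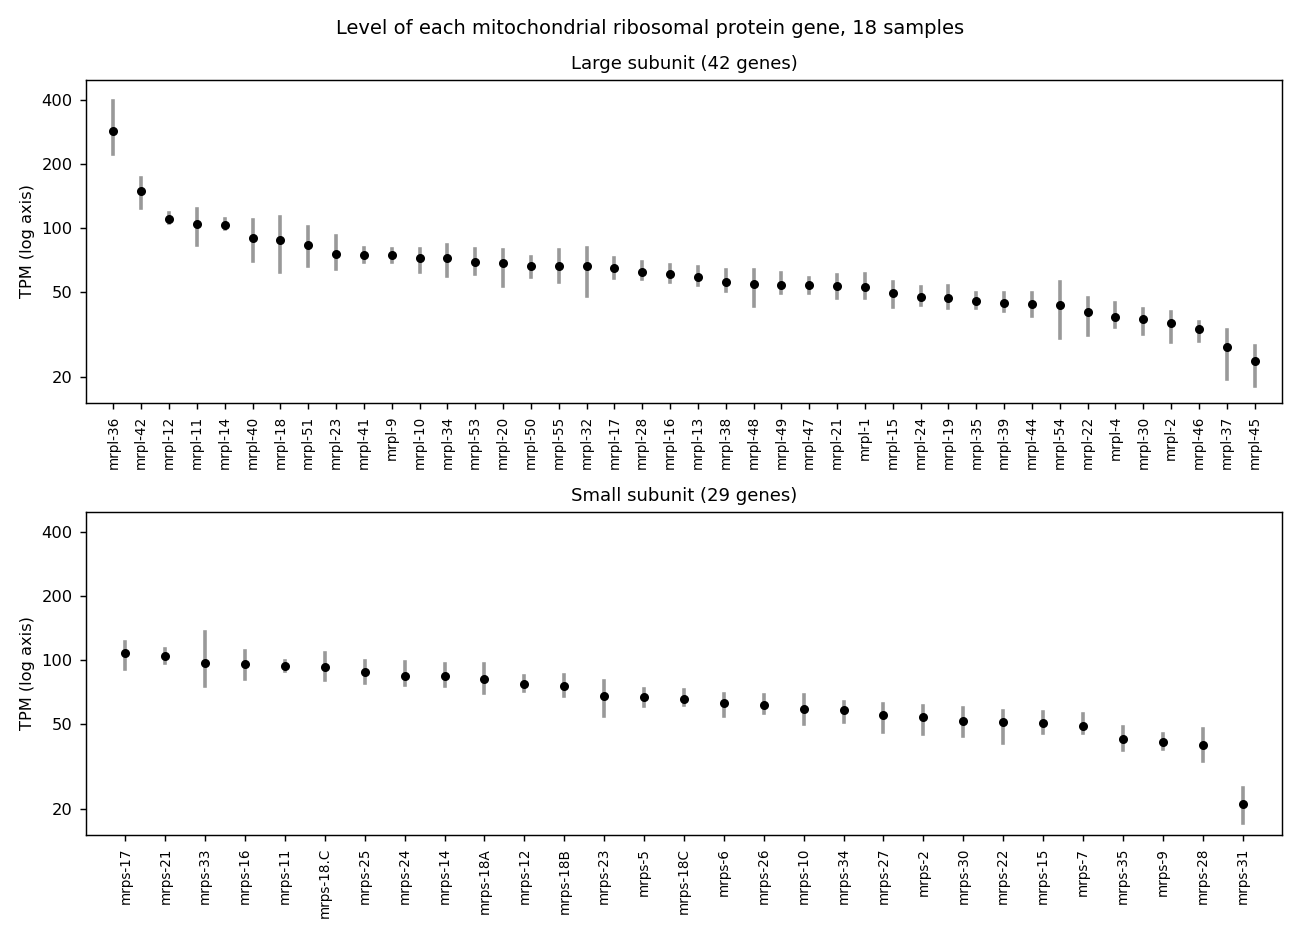
TPM of each mitochondrial ribosomal protein gene on a log axis, large subunit above and small subunit below, each sorted by mean. Points are means over 18 samples and grey lines run from the lowest to the highest sample; mrpl-36 stands above the rest at a mean of 287 TPM, and mrps-31 is lowest at 20.99 TPM.

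The members shared features that their names do not fix. None lay on the X chromosome, and chromosomes I to V held 15, 13, 22, 11 and 10 of them. Their main transcripts, or for 9 members the longest annotated one, were short. The median was 747 nt (309 to 2164 nt) against 1294 nt over the protein-coding genes tested. A protein-coding gene on the same strand began or ended within 500 bp of 47 of them (66.2%), against 37.7% of protein-coding genes tested. A pair of members, mrps-2 and mrpl-4, are such neighbours on chromosome V, with 105 bp between them. For 15 members (21.1%, against 24.8% of protein-coding genes tested) a protein-coding gene overlaps on the other strand. Strand use in counting is not given in the sources used here, so reads of such partners may not be told apart.

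The levels also varied little from sample to sample. Over all 18 samples the coefficient of variation of CPM had a median of 9.91% in the members (3.41% to 27.5%), against 26.6% over all genes tested. The members' median TPM lay above that of 84.8% of genes tested. Variation was not compared with genes of like level, so the part of level in this contrast was not tested. The sum over the 71 genes was 4459, 4550 and 4576 TPM in ascr#10 worms and 4517, 4523 and 4553 TPM in water worms at 50 h, as the lowest, the median and the highest sample. At 58 h in the first collection it was 4870, 4888 and 4960 TPM in ascr#10 worms and 4893, 4941 and 5005 TPM in water worms. On this scale exposures overlapped at both ages, and the 2 ages did not. Summed CPM gave another picture, with 3156 to 3167 CPM in ascr#10 worms and 3033 to 3061 CPM in water worms at 50 h, and 3108 to 3175 CPM in ascr#10 worms and 3084 to 3124 CPM in water worms at 58 h in the first collection. There the exposures were apart at 50 h and overlapped at 58 h, and the ages overlapped in ascr#10 worms but not in water worms. The members' unscaled share of all counts was 0.303% to 0.315% at 58 h and 0.319% to 0.323% at 50 h in ascr#10 worms. In water worms it was 0.305% to 0.314% at 58 h and 0.320% to 0.324% at 50 h. The exposures overlapped in this share at both ages, so their separation in CPM at 50 h rests on the TMM adjustment. The mean level per large-subunit gene over that per small-subunit gene was 0.970 ± 0.0048 in ascr#10 worms and 0.967 ± 0.0032 in water worms at 50 h, and 0.989 ± 0.0088 in ascr#10 worms and 0.992 ± 0.0079 in water worms at 58 h in the first collection (SD, n = 3 each).

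Most genes of the worm changed between 50 h and 58 h, and with TMM the mitochondrial ribosomal proteins moved little. The age comparison was made within the first collection. In ascr#10 worms 14 members rose and 17 fell, and in water worms 22 rose and 13 fell, where 37% of all genes tested rose and 43.9% fell in ascr#10 worms, and 37.5% rose and 42.4% fell in water worms (80.9% and 79.9% in either direction). The members spanned log2 differences of -0.22 to 0.25 in ascr#10 worms and -0.24 to 0.29 in water worms, the largest being 1.22-fold. The 95% interval of the difference lay inside 1.25-fold (0.32 on the log2 scale) either way for 68 of 71 members in ascr#10 worms and 62 of 71 in water worms.

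The split between rising and falling members depended on the scaling. The median of all genes was -0.13 in ascr#10 worms and -0.10 in water worms with TMM, -0.06 and -0.05 with DESeq2's size factors, and 0.00018 and -0.012 on log2(TPM + 1). The members' counts followed. With size factors 31 rose and 8 fell in ascr#10 worms, and 34 rose and 7 fell in water worms. On TPM these were 39 and 3 in ascr#10 worms, and 39 and 4 in water worms. Of all genes, 12907 in ascr#10 worms and 12743 in water worms were called with size factors, and 12911 and 12786 on TPM. Relative to the median of all genes, the members' median was higher by 0.11, 0.11 and 0.10 in ascr#10 worms and by 0.14, 0.14 and 0.13 in water worms under the 3 scalings. All 14 and all 22 members that rose with TMM also rose under the other 2 scalings, while only 3 of the 17 and 4 of the 13 that fell did so.

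Calls shared between the exposures were not counted over all genes, of which 37% rose in ascr#10 worms and 37.5% in water worms. Members that rose in both exposures numbered 12, which is 85.7% of the 14 in ascr#10 worms and 54.5% of the 22 in water worms. Among them mrpl-20, whose bacterial homolog acts in the assembly of the large subunit, had 36.03, 32.7 and 38.2 CPM at 58 h against 31.1, 30.6 and 28.3 CPM at 50 h in ascr#10 worms. In water worms it had 33.8, 35.3 and 34.5 CPM at 58 h against 29.9, 28.9 and 28.8 CPM at 50 h. The ages did not overlap in either exposure, and the log2 differences were 0.25 ± 0.049 in ascr#10 worms and 0.24 ± 0.050 in water worms (SE, adjusted p = 8.13e-06 and 1.65e-05). The mitochondria-specific mrpl-40 rose by 0.22 ± 0.042 in ascr#10 worms and by 0.28 ± 0.043 in water worms. So did mrpl-34 (0.24 and 0.23), a homolog of a small bacterial protein, and the mitochondria-specific mrpl-48 (0.23 and 0.25). For mrpl-18, whose bacterial homolog binds 5S rRNA, the values were 0.16 in ascr#10 worms and 0.29 in water worms, and for mrpl-11, at the base of the factor-binding stalk, 0.15 in ascr#10 worms and 0.24 in water worms.

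The clearest falls were in mrpl-22 and mrpl-37, the members that fell in both exposures under all 3 scalings. In bacteria the homolog of mrpl-22 lines the tunnel through which the nascent chain leaves. It had 30.1, 31.3 and 31.5 CPM at 58 h against 36.5, 36.2 and 35.4 CPM at 50 h in ascr#10 worms, and 28.2, 28.98 and 30.8 CPM at 58 h against 34.01, 35.3 and 34.2 CPM at 50 h in water worms. Every 58 h sample lay below every 50 h sample. Its log2 differences were -0.22 ± 0.047 in ascr#10 worms and -0.24 ± 0.048 in water worms (SE, adjusted p = 3.59e-05 and 1.44e-05). The mitochondria-specific mrpl-37 had log2 differences of -0.22 ± 0.043 in ascr#10 worms and -0.18 ± 0.043 in water worms. mrpl-24 and mrpl-23, whose homologs stand with mrpl-22's around the exit of the tunnel, had log2 differences of 0.04 and -0.06 in ascr#10 worms and 0.09 and 0.06 in water worms, of which only the 0.09 of mrpl-24 passed the test.

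**Figure D2:**
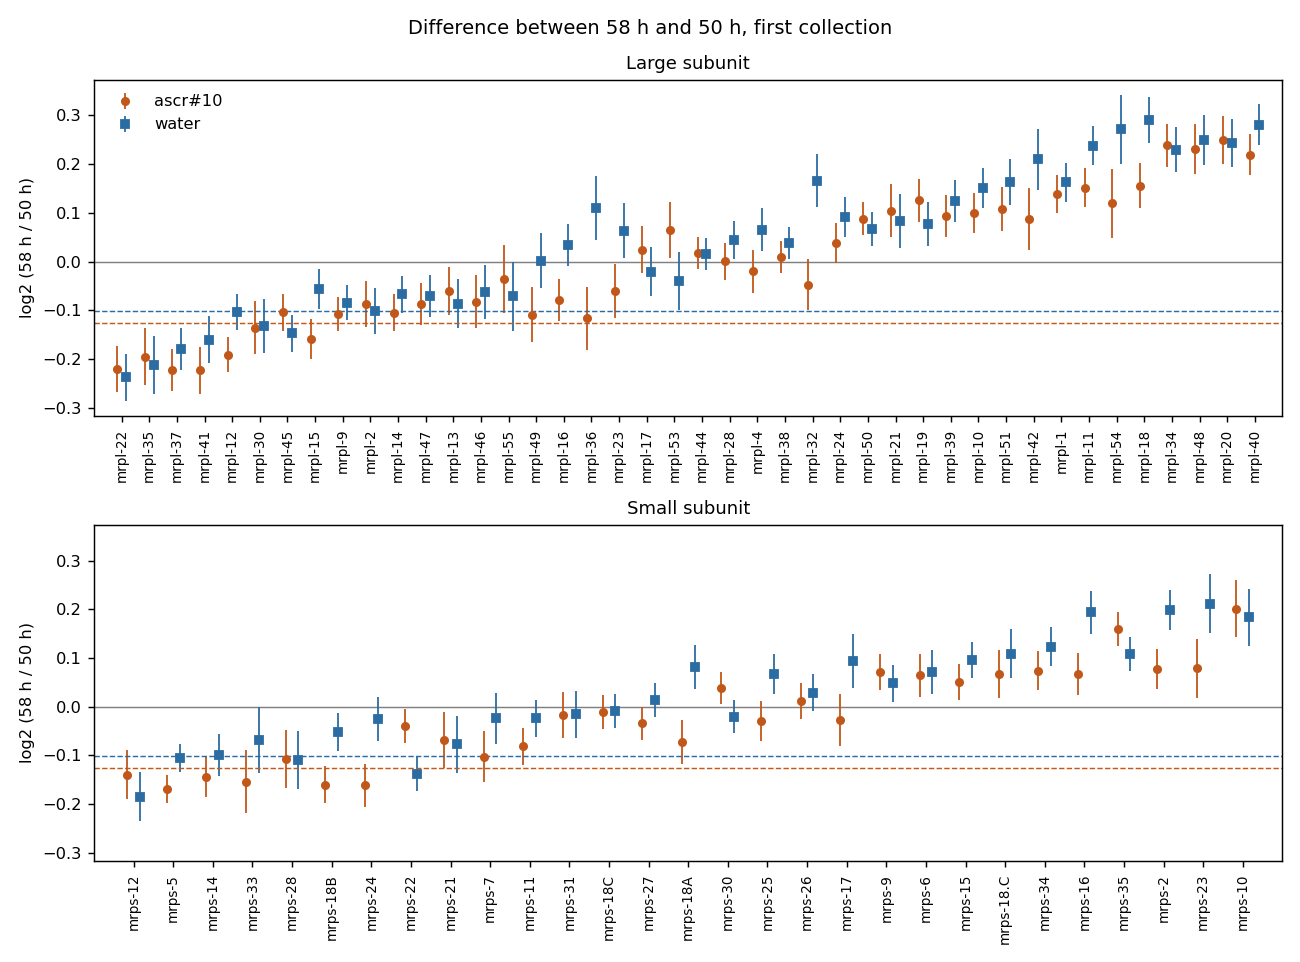
Log2 difference between 58 h and 50 h in the first collection for each gene, with standard errors, in ascr#10 worms (orange circles) and water worms (blue squares), sorted by their mean. Dashed lines give the median of all genes tested in each exposure; the members run from -0.24 to 0.29, on both sides of 0.

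Genes of one functional site could differ in direction. Around the stalk, mrpl-12 fell in both exposures (-0.19 in ascr#10 worms and -0.10 in water worms), though with DESeq2's size factors and on TPM its fall was called in ascr#10 worms alone, while mrpl-11 and mrpl-10 rose in both. On the small subunit, mrps-12, whose bacterial homolog sits in the decoding centre, had -0.14 in ascr#10 worms and -0.18 in water worms, and mrps-5 had -0.17 in ascr#10 worms and -0.10 in water worms. All 4 values passed the test with TMM, and on log2(TPM + 1) only the water value of mrps-12 did. The small-subunit mrps-2 had 0.08 in ascr#10 worms, which did not pass the test, and 0.20 in water worms, which did. Of the 4 genes named after bacterial S18, mrps-18.C had 0.07 in ascr#10 worms and 0.11 in water worms, and mrps-18A -0.07 and 0.08. mrps-18B had -0.16 and -0.05, and mrps-18C -0.01 and -0.01. Only the 0.11 and the -0.16 passed, and the second of these not on log2(TPM + 1). Differences among the 4 were not tested. The names mrps-18.C and mrps-18C belong to 2 different genes in the tables. The transcript of mrps-18C has 1363 nt, against 483, 811 and 844 nt for mrps-18.C, mrps-18A and mrps-18B. Its relation to S18 rests on its name alone and was not checked. In mammals the mrps-18A and mrps-30 homologs sit in the large subunit.

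In mrpl-2, at the peptidyl transferase centre in bacteria, the log2 difference was -0.09 ± 0.047 in ascr#10 worms and -0.10 ± 0.047 in water worms, and only the second passed (adjusted p = 0.0447). On log2(TPM + 1) the ascr#10 value turned to 0.04 and neither passed. For dap-3 it was -0.08 ± 0.037 in ascr#10 worms, which passed the test, and -0.04 ± 0.037 in water worms, which did not, and both were above 0 on log2(TPM + 1).

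Other gene sets of mitochondrial protein synthesis and respiration took different courses over the same 8 h interval. Cytosolic ribosomal proteins fell as a body, 78 of 78 in ascr#10 worms and 77 of 78 in water worms, with medians of -0.26 and -0.21, and on log2(TPM + 1) 72 fell in ascr#10 worms and 70 in water worms. Of 40 nuclear-encoded respiratory chain genes, 5 rose and 28 fell in ascr#10 worms, and 5 rose and 17 fell in water worms. On log2(TPM + 1) that balance turned, with 12 higher and 9 lower in ascr#10 worms and 11 higher and 8 lower in water worms. Of 13 mitochondrial aminoacyl-tRNA synthetases, which charge the organelle's tRNAs, 7 rose and 1 fell in each exposure, and 11 and 8 rose on log2(TPM + 1). The mitochondrial arginyl-tRNA synthetase rars-2 rose by 0.45 ± 0.036 in ascr#10 worms and by 0.43 ± 0.037 in water worms. Among the 5 translation factors found, tufm-1 and gfm-1, 2 elongation factors, fell in both exposures, by 0.22 and 0.40 in ascr#10 worms and by 0.18 and 0.42 in water worms on the log2 scale, while tufm-2 and tsfm-1 rose in both; these calls held under all 3 scalings. The 7 stress genes went both ways. The chaperonin hsp-60 had -0.41 and the stress-response factor atfs-1 had 0.62 in ascr#10 worms, against -0.46 and 0.57 in water worms. By CPM, hsp-6 and dve-1 were lower and lonp-1 and ubl-5 higher at 58 h, without overlap of the ages in either exposure. For clpp-1 the ages overlapped in both. Of the 12 protein genes of the mitochondrial genome, 4 fell in ascr#10 worms and 5 in water worms, against 1 and 2 on log2(TPM + 1), and none rose under any of the 3 scalings.

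RNA levels of markers of several tissues also differed between the 2 ages. Sperm markers fell for 40 of 41 tested in each exposure, with sums of 247 to 259 CPM at 58 h and 3640 to 3669 CPM at 50 h in ascr#10 worms. Germline and oocyte markers rose for 14 of 16, with sums of 12349 to 12856 CPM at 58 h and 8680 to 8764 CPM at 50 h in ascr#10 worms. In water worms the sperm sums were 379 to 388 CPM at 58 h and 3732 to 3771 CPM at 50 h, and the germline and oocyte sums 12111 to 12633 CPM at 58 h and 8273 to 8390 CPM at 50 h. All 10 muscle and all 7 hypodermal markers fell, all 5 embryo markers tested rose, and 6 of 8 neuron markers fell and 2 rose in both exposures. Of 8 intestine markers 6 fell and 2 rose in each exposure, while their sum was higher at 58 h, at 40533 to 43780 CPM against 29177 to 29286 CPM at 50 h in ascr#10 worms, and at 40050 to 43348 CPM against 26112 to 27219 CPM at 50 h in water worms. Male soma markers fell for 1 of 2 in ascr#10 worms, with sums of 6.10 to 7.41 CPM at 58 h and 230 to 238 CPM at 50 h. They fell for both in water worms, with sums of 8.90 to 10.3 CPM at 58 h and 285 to 288 CPM at 50 h. Of these lists, msp-32, msp-37, msp-74 and msp-79 (sperm), clec-207 (male soma) and med-1 (embryo) were at 0 in at least 1 group. The part of these tissues in the members' differences with age was not tested.

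ascr#10 moved the members by small amounts, and with TMM none fell at either age. At 50 h, 9 of 71 rose (12.7%), where 12.9% of all genes were called, 7.7% higher and 5.2% lower. At 58 h, 1 rose in the first collection (8.05% of all genes called, 2.84% higher and 5.22% lower) and 19 in the second (31.7% called, 15.3% higher and 16.4% lower). The members' median log2 difference was 0.05 at 50 h, and at 58 h it was 0.02 in the first and 0.06 in the second collection, beside medians of all genes of -0.0023, -0.0011 and -2.4e-05. The largest difference in the 3 comparisons was 1.15-fold. The 95% interval lay inside 1.25-fold for all 71 members at 50 h and in the second collection, and for 70 in the first collection at 58 h, the exception being mrpl-53.

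At 50 h the 9 members were mrpl-32, mrps-33, mrpl-18, mrpl-12, mrps-18.C, mrpl-11, mrps-14, mrps-25 and mrps-34. The largest difference was in mrpl-32, a homolog of bacterial L32, at 32.2, 31.7 and 32.7 CPM in ascr#10 worms against 24.9, 29.1 and 30.4 CPM in water worms, a log2 difference of 0.19 ± 0.053 (SE, adjusted p = 0.009). The exposures did not overlap, but 1 water sample lay far below the other 2. The stalk protein mrpl-12, which W09D10.5 overlaps on the other strand, had the smallest adjusted p, at 61.5, 59.3 and 59.8 CPM in ascr#10 worms against 54.8, 53.4 and 55.4 CPM in water worms (log2 difference 0.14 ± 0.035, adjusted p = 0.003). For mrpl-12 the groups lay well apart. CPM did not overlap between exposures, ascr#10 above, for 21 members and below for none, beside 16.3% above and 15.2% below over all genes.

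The 50 h count rested on single libraries and on the scaling. It was 4 without ascr#10 replicate 2, the library rich in ribosomal RNA, 2 without ascr#10 replicate 3, 1 without water replicate 1 and 3 without water replicate 2. On log2(TPM + 1) none rose and 1 fell, where 2630 of all genes were called, against 2065 with TMM. Of the other sets at 50 h, 44 of 78 cytosolic ribosomal proteins and 22 of 40 respiratory chain genes rose and none fell, with medians of 0.08 each, while on log2(TPM + 1) 0 and 1 of them did. Of the markers at this age, 8 of 16 for germline and oocyte rose and none fell, 4 of 10 for muscle and 3 of 8 for intestine rose and 1 of each fell, 1 of 7 for hypodermis rose and 1 fell, and 5 of 41 for sperm and 1 of 2 for male soma fell. Intestine markers summed to 29177 to 29286 CPM in ascr#10 worms and 26112 to 27219 CPM in water worms, and male soma markers to 230 to 238 CPM in ascr#10 worms and 285 to 288 CPM in water worms. These sums did not overlap, and their part in the members' differences was not tested.

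At 58 h the one member called in the first collection was mrpl-53, a mitochondria-specific protein of the large subunit (chromosome II, WBcel235, 9597622 to 9598201, plus strand, 3 exons). It had 20.1, 21.98 and 21.01 CPM in ascr#10 worms against 18.9, 18.01 and 17.6 CPM in water worms in the first collection. In the other it had 27.7, 27.4 and 25.9 CPM in ascr#10 worms against 24.7, 23.6 and 25.0 CPM in water worms. ascr#10 samples were above water samples in both collections, with log2 differences of 0.21 ± 0.060 and 0.14 ± 0.046 (SE, adjusted p = 0.0183 and 0.0133). The gene nhr-19 overlaps it on the other strand. The first-collection count was 0 without ascr#10 replicate 2, without water replicate 2 or without water replicate 3, and 2 without ascr#10 replicate 1 or replicate 3. CPM did not overlap between exposures, ascr#10 above, for 9 members and below for 5, beside 9.97% above and 12.5% below over all genes. Sperm markers were lower for 27 of 41 in ascr#10 worms of this collection, with sums of 247 to 259 CPM in ascr#10 worms and 379 to 388 CPM in water worms, and their part was not tested.

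Over the mean of the 2 collections, 9 members rose (25.5% of all genes called, 11.8% higher and 13.7% lower). With size factors 22 rose and on log2(TPM + 1) 3, where 4949 and 2379 of all genes were called, against 4083 with TMM. mrpl-53, mrps-18.C and mrpl-34 rose under all 3 scalings. mrps-18.C, a relative of bacterial S18 on chromosome II (6736203 to 6736783, plus strand, 3 exons), had 38.5, 36.5 and 37.3 CPM in ascr#10 worms against 32.7, 33.9 and 33.9 CPM in water worms in the second collection. In the first it had 26.99, 29.9 and 29.4 CPM in ascr#10 worms against 26.7, 27.05 and 26.7 CPM in water worms. The groups were apart in the second collection and overlapped in the first, and the mean log2 difference was 0.13 ± 0.031 (SE, adjusted p = 0.0015). mrpl-34 had 50.1, 47.3 and 50.1 CPM in ascr#10 worms against 44.5, 45.9 and 44.9 CPM in water worms in the second collection. In the first it had 39.7, 41.4 and 37.4 CPM in ascr#10 worms against 36.3, 38.1 and 35.4 CPM in water worms. The exposures were apart in the second collection and overlapped in the first, and its mean log2 difference was 0.12 ± 0.028 (SE, adjusted p = 0.00141). The gene aha-1 overlaps mrpl-34 on the other strand.

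In the second collection the 19 members were 10 of the large and 9 of the small subunit. The largest log2 differences were 0.17 in mrpl-54, 0.17 in mrps-28, 0.16 in mrpl-42, 0.16 in mrps-18.C, 0.14 in mrpl-53 and 0.13 in mrps-23. Those of mrpl-12 and mrps-15 were 0.12 and 0.11. The count was 8 without water replicate 2. It was 30 with size factors (5742 of all genes called) and 1 on log2(TPM + 1) (2279 called). TMM called 5067 of all genes. CPM did not overlap, ascr#10 above, for 28 members and below for none, beside 21.6% above and 21.5% below over all genes. In the same collection 50 of 78 cytosolic ribosomal proteins rose and 2 fell, and 4 of 13 mitochondrial aminoacyl-tRNA synthetases rose, against 10 and 0 that rose on log2(TPM + 1). All 10 muscle markers, 7 of 8 intestine markers and 30 of 41 sperm markers were lower, and 13 of 16 germline and oocyte markers higher, in ascr#10 worms of this collection. Summed muscle markers were 4616 to 4804 CPM in ascr#10 worms and 5549 to 5863 CPM in water worms. Their part in the members' differences was not tested.

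**Figure D3:**
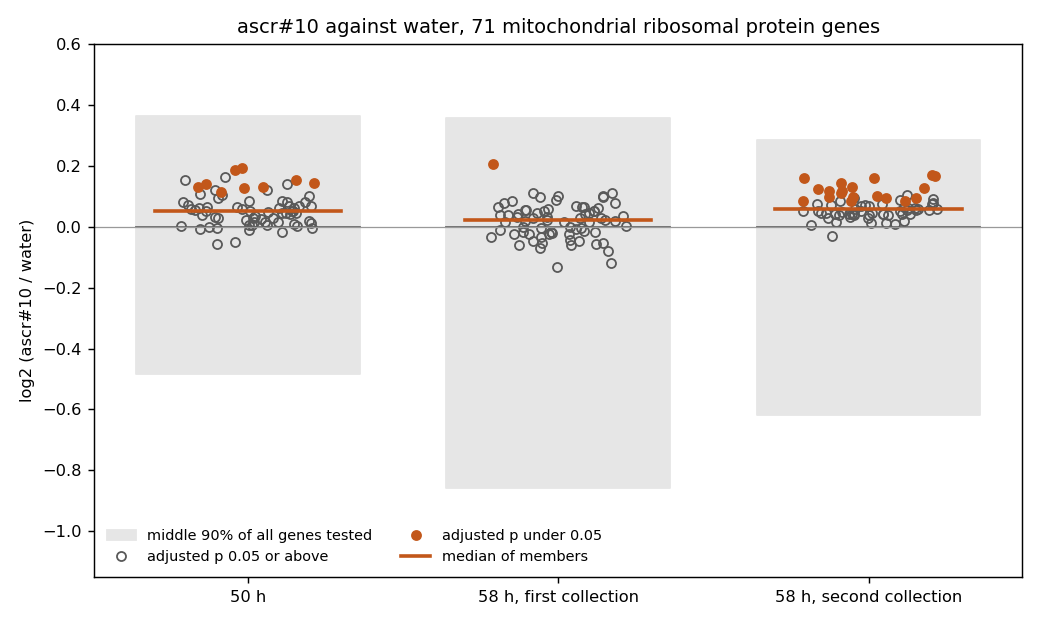
Log2 difference between ascr#10 and water worms for the 71 genes at 50 h and in each collection at 58 h. Filled circles passed the test; the orange bar is the members' median and the grey band holds the middle 90% of all genes tested. Every member lies inside the band, and the medians are 0.05, 0.02 and 0.06.

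No member passed the test of the difference in ascr#10 effect between 58 h in the first collection and 50 h (4.74% of all genes called, 0.931% higher and 3.8% lower). By unadjusted p, 7 members were under 0.05, and DESeq2's Wald test called 0. The largest value was -0.23 in mrpl-36, and the median was -0.04. Between the collections the ascr#10 effect at 58 h was larger in the second for 4 members and smaller for none (11.1% of all genes called, 4.34% higher and 6.8% lower). These were mrpl-42, mrpl-54, mrps-28 and mrps-2. mrpl-42 had 26.4, 24.9 and 23.2 CPM in ascr#10 worms against 21.9, 22.3 and 22.4 CPM in water worms in the second collection. In the first the order was opposite, though that difference did not pass the test, with 19.1, 19.8 and 17.8 CPM in ascr#10 worms against 20.9, 20.6 and 20.6 CPM in water worms. mrpl-42 lies on chromosome IV (9093563 to 9094456, minus strand, 4 exons) and overlaps lpl-1 on the same strand. The count of 4 was 2 without ascr#10 replicate 3 of either collection or water replicate 1 of the second. It was 1 without water replicate 2 of the second or water replicate 1 or 3 of the first. On log2(TPM + 1) it was also 1, where 1203 of all genes were called, against 1783 with TMM.

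**Figure D4:**
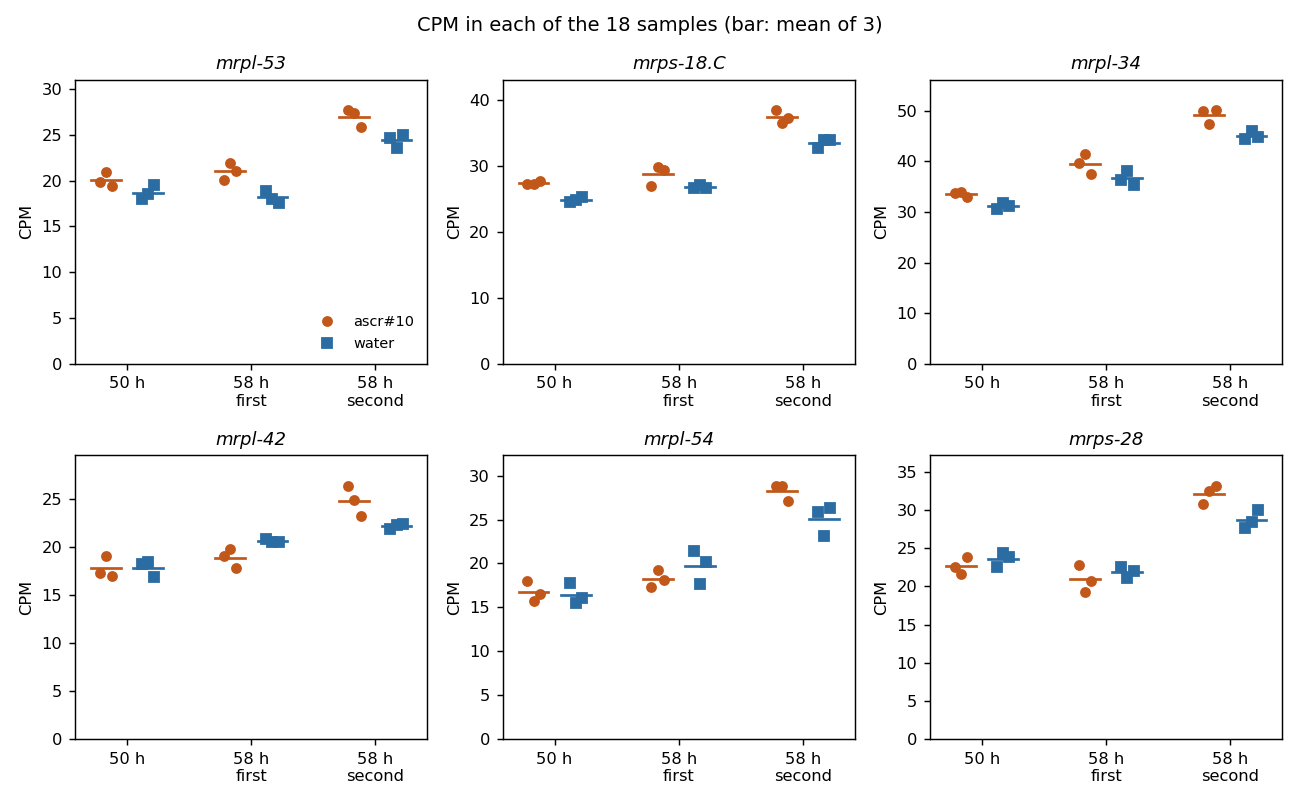
CPM in each sample for 6 genes: 3 that rose with ascr#10 at 58 h under all 3 scalings (top) and 3 whose ascr#10 effect differed between the collections (bottom). Orange circles are ascr#10 and blue squares water, with bars at the mean of 3; mrpl-42 in ascr#10 worms lies below water in the first collection at 58 h and above it in the second.

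With TMM the members' medians lay further from 0 between the 2 collections than between ages or exposures, which did not hold on TPM. In the second collection against the first at 58 h, 57 members rose and 5 fell in ascr#10 worms, and 52 rose and 5 fell in water worms (55.5% of all genes called in ascr#10 worms, 30.2% higher and 25.4% lower, and 58.1% in water worms, 30.8% higher and 27.3% lower). The medians were 0.29 in ascr#10 worms and 0.22 in water worms, beside 0.02 and 0.01 over all genes. The TPM scale moved the median of all genes to -0.15 in each exposure. There 21 members rose and 26 fell in ascr#10 worms, and 16 rose and 30 fell in water worms. Of all genes, 8859 in ascr#10 worms and 9370 in water worms were called there, against 8887 and 9297 with TMM. On that scale the members' medians were 0.013 in ascr#10 worms and -0.048 in water worms between collections, and 0.10 in ascr#10 worms and 0.12 in water worms between ages. With TMM, members that rose in both exposures numbered 52, all of those that rose in water worms and 91.2% of those in ascr#10 worms. The same overlap was not counted over all genes, of which 30.2% rose in ascr#10 worms and 30.8% in water worms.

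The order of the members by this difference followed transcript length. The largest values were in mrpl-36 (0.78 in ascr#10 worms and 0.64 in water worms) and in the mitochondria-specific mrps-33 (0.77 and 0.82), with transcripts of 309 and 506 nt. mrps-33 had 44.2, 37.3 and 37.7 CPM in ascr#10 worms of the second collection against 23.6, 24.1 and 22.3 CPM in ascr#10 worms of the first. The 2 collections lay far apart for this gene. At the other end mrpl-37 (1446 nt), mrpl-45 (2140 nt), mrps-22 (1429 nt) and mrps-31 (2164 nt) fell in both exposures, mrpl-37 by 0.18 in ascr#10 worms and by 0.27 in water worms.

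Across the 71 genes, Pearson's r between the difference and log2 transcript length was -0.79 in ascr#10 worms and -0.76 in water worms, and Spearman's rho was -0.76 and -0.75. The points share their libraries and genes are not independent replicates, so this is a description. For 9 members, mrpl-54 and mrps-23 under 500 nt among them, the length is that of a transcript that was not the main one. Over 15167 protein-coding genes rho was -0.36 in ascr#10 worms and -0.35 in water worms. On TPM the members' r was -0.79 in ascr#10 worms and -0.76 in water worms, so the relation with length was as strong there. The members' median was 0.49 in ascr#10 worms and 0.34 in water worms for the 7 genes under 500 nt, and 0.10 in ascr#10 worms and 0.04 in water worms for the 18 genes of 1000 nt to under 1500 nt. Over all protein-coding genes the medians of the same length classes were 0.38 in ascr#10 worms and 0.34 in water worms under 500 nt, and 0.05 in ascr#10 worms and 0.04 in water worms from 1000 nt to under 1500 nt. The age differences had r of -0.04 in ascr#10 worms and -0.22 in water worms, and the ascr#10 differences had r of -0.37 at 50 h, and at 58 h of 0.07 in the first and -0.27 in the second collection.

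**Figure D5:**
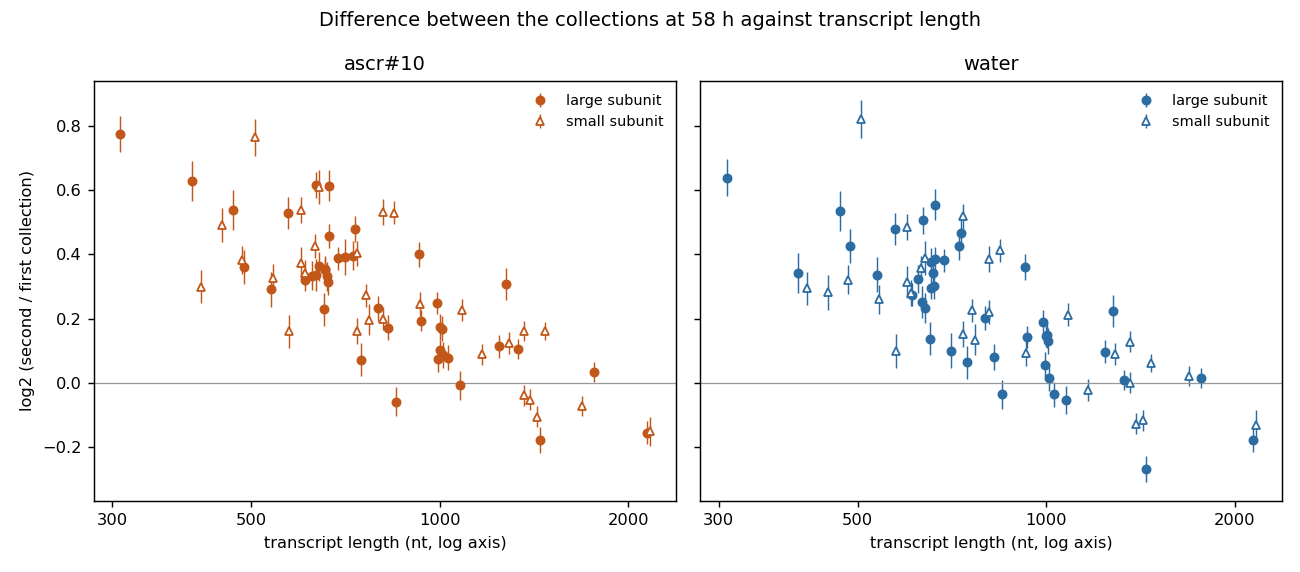
Log2 difference between the second and the first collection at 58 h, with standard errors, against transcript length on a log axis, for ascr#10 worms (left) and water worms (right). Filled circles are large-subunit and open triangles small-subunit genes; values decline with length in both panels, with r of -0.79 and -0.76.

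Transcript-level estimates added little for most members, since 1 transcript held most counts. mrpl-14 and mrpl-54 were the most evenly divided. mrpl-14 was divided between 2 transcripts, and its F45E12.5a.1 form took 31.2% ± 0.72 of its estimated counts in ascr#10 worms and 35.3% ± 0.16 in water worms at 58 h in the first collection. At 50 h that share was 26.3% ± 1.2 in ascr#10 worms and 28.2% ± 0.57 in water worms, and in the second collection at 58 h it was 36.4% ± 0.32 and 36.8% ± 1.6 (SD, n = 3 each). In the first collection the share was higher at 58 h than at 50 h in every sample of both exposures, and in the second the exposures overlapped. No test was made of these shares, which rest on salmon's division of shared reads.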

How the data were processed

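Gene-level estimated counts, not normalized, were produced by the authors with salmon, per the deposited files' names. Length-scaled estimated counts, TPM values and transcript-level estimated counts were also deposited and used. No source used here names the genome build, annotation or strand setting. Samples are independent preparations per the labels' protocols, without saying of what, so p-values cover only their spread. One characteristic gives 58 h for all samples, whereas titles, descriptions and the design text give 50 h for 6, and these were followed. Counts (95.2% whole) were rounded. Genes passing edgeR 4.0.16's filterByExpr (minimum count 10) were scaled by TMM, fitted as 6 group means over 18 samples with robust quasi-likelihood (R 4.3.3), and adjusted by Benjamini-Hochberg over 16006 genes at 0.05. The biological coefficient of variation was 2.86%. The procedure was tested on simulated data. Alternatives were DESeq2 1.42.0 (size factors, Wald test), limma 3.58.1 on log2(TPM + 1), no filter, length-scaled counts, a replicate block, the compared samples alone, an additive model for the exposure effect at 58 h, and leaving out each library. Coordinates, neighbours and lengths come from Ensembl release 115 (WBcel235) by identifier. For 9 members the main transcript was not annotated there and the longest annotated one was used. That transcript held no counts in mrpl-17, mrpl-30, mrpl-42, mrpl-51, mrps-2 and mrps-23. It held the smaller share in mrpl-28, mrpl-54 and mrps-30, so these lengths are approximate. Members and lists were chosen with earlier results of these data known. Genes were named as landmarks of the ribosome, as the up to 6 highest and 6 lowest called members of a comparison, as called in a difference of effects, or as the 3 highest or lowest in TPM; others were chosen after their values were seen. The landmark mrpl-3, and mtif-2, mtif-3, gfm-2, mtrf-1, mars-2, wars-2, nduf-9, nduf-11 and opt-2 of the other lists are not analysed here.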

Additional observations from a re-analysis of the deposited data

Results flagged for a closer look

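The effect of ascr#10 at 58 h differed between the second and the first collection, by the test of the difference in effects, for 4 members. Of all genes tested, 11.1% were called by the same test, 4.34% with a larger effect in the second collection and 6.8% with a smaller one. The count of 4 therefore does not set the members apart from other genes. The log2 difference of effects was 0.29 ± 0.079 in mrpl-42 (SE, adjusted p = 0.00886), 0.29 ± 0.088 in mrpl-54 (adjusted p = 0.0241), 0.22 ± 0.076 in mrps-28 (adjusted p = 0.0484) and 0.15 ± 0.053 in mrps-2 (adjusted p = 0.0491). In all 4 the effect was above 0 in the second collection and below 0 in the first. It was 0.16 in the second and -0.13 in the first for mrpl-42, 0.17 and -0.12 for mrpl-54, 0.17 and -0.05 for mrps-28, and 0.09 and -0.07 for mrps-2. The first-collection effects did not pass the test. Only mrpl-42 passed under all 3 scalings. The number of members with a larger effect in the second collection was 2 without ascr#10 replicate 3 of either collection or without water replicate 1 of the second, and 1 without water replicate 2 of the second or without water replicate 1 or 3 of the first. mrpl-54 was the most evenly divided member between transcripts, with its F25H5.6.1 form at 36.4% ± 5.9 of counts in ascr#10 worms and 39.1% ± 1.3 in water worms of the second collection (SD, n = 3 each).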

How the results depend on the processing

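Counts below are members higher, then lower where one is given, and medians are log2. Calls and medians over all genes are given here only for TMM, size factors and log2(TPM + 1). Under the other settings, or with a library left out, a shift in the members cannot be read as particular to them. With DESeq2's Wald test, 4 rose at 50 h, 2 at 58 h in the first collection and 20 over the mean of collections. With age it gave 30 and 6 (median 0.049) in ascr#10 worms and 34 and 7 (median 0.082) in water worms, and between collections a median of 0.20 in water worms. With size factors in edgeR, 2 rose at 58 h in the first collection, 30 in the second and 22 over the mean, and with age 31 and 8 (median 0.049) in ascr#10 worms and 34 and 7 (median 0.082) in water worms. The collection median was 0.20 in water worms. These size factors called 1520 of all genes at 58 h in the first collection, against 1289 with TMM. On log2(TPM + 1), 0 rose and 1 fell at 50 h (median -0.017), the first-collection median was -0.0060, 1 rose in the second (0.023) and 3 over the mean (0.014). With age it gave 39 and 3 (median 0.10) in ascr#10 worms and 39 and 4 (0.12) in water worms, a median of 0.0097 for the difference of effects between ages, and 1 larger effect in the second collection. Between collections it gave 21 and 26 (0.013) in ascr#10 worms and 16 and 30 (-0.048) in water worms. Among the named genes, the call between collections reversed on that scale in ascr#10 worms for mrpl-16 (-0.11), mrps-5 (-0.12), mrps-15 (-0.19) and mrps-18C (-0.12). In water worms it reversed for mrps-2 (-0.18), mrps-5 (-0.21), mrps-7 (-0.13) and mrps-18C (-0.14). Members outside the named genes are not listed, though some changed sign too. One was mrpl-1, with 0.11 under TMM and -0.16 on log2(TPM + 1) in ascr#10 worms. With no filter, 7 rose at 58 h in the first collection (median 0.055), 10 in the second and 16 over the mean, 26 rose and 10 fell with age in ascr#10 worms (0.034), and 8 fell in water worms. The difference of effects then had a median of -0.0079 between ages and of 0.0016 between collections, with 2 and 2 called, and the collection median was 0.25 in ascr#10 worms. With the compared samples alone, 16 rose over the mean, the difference between collections had 1 and 1 (median 0.0024), and the collection median was 0.27 in ascr#10 worms. Length-scaled counts left 1 larger effect in the second collection. The additive model gave 8 over the mean. The causes were not tested, beyond the scaling shifts given above.

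Same-numbered samples did not deviate together (correlations of -0.046 to 0.035 over 21 pairs), so no pairing by number was seen. Correlations near 0 cannot show that same-numbered samples were prepared apart. With a replicate block, 9 rose at 50 h, and at 58 h 2 in the first collection against 21 later.

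Leaving out each library gave 1 to 8 higher at 50 h (median 0.05 to 0.06), 0 to 2 at 58 h in the first collection (0.0048 to 0.038), 8 to 22 in the second (0.05 to 0.08) and 7 to 13 over the mean (0.03 to 0.05), with none lower. With age it gave 10 to 12 higher and 16 to 19 lower (-0.033 to 0.0059) in ascr#10 worms, and 18 to 21 and 11 to 14 (0.01 to 0.04) in water worms. For the difference of effects it gave 0 higher and 0 to 1 lower between ages (-0.05 to -0.02), and 1 to 5 and 0 to 1 between collections (0.03 to 0.06). Between collections it gave 56 to 59 and 3 to 5 (0.26 to 0.31) in ascr#10 worms, and 47 to 51 and 3 to 5 (0.21 to 0.24) in water worms. Of all values for named genes under these alternatives, 5708 kept direction and side of the threshold, 254 lost a call, 139 gained one and 8 reversed. Standard errors of the members' log2 differences at 50 h were 0.029 to 0.071, which limits what 3 samples a group can resolve.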
